A study of Mus musculus with 50 samples.

Results

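Ribosome-bound mRNA of D1-MSNs was compared between 4 libraries labelled Sirt1-KO (numbers 1, 3, 4 and 5) and 4 D1 Con libraries (numbers 1 to 4), chosen by their labels from the 50 samples of the series. D1-MSNs are the medium spiny neurons of the nucleus accumbens (NAc) that carry the dopamine D1 receptor. All 8 libraries came from RiboTag (RT) mice with D1-Cre, in which Cre recombinase, driven by the D1 receptor promoter, switches on an HA tag on the ribosomal protein RPL22, and an HA antibody then precipitates ribosomes with their mRNA. The Sirt1-KO mice carried a floxed *Sirt1* in addition (RT; Sirt1-floxed; D1-Cre), whereas D1 Con mice were RT; D1-Cre, of strain C57BL/6 and 8 to 12 weeks old. Both groups were unstressed controls of a social defeat experiment. Each library pooled NAc punches from 2 mice. Their number is taken here as 6 per library, whereas the paper's methods give 6 from each mouse. The age of the Sirt1-KO mice and the deleted exon are not given in the sources used here, and the Sirt1-KO libraries were deposited in a separate table, so genotype and anything else that differed between the 2 sets of libraries cannot be told apart. The other 9 D1-IP libraries, 4 resilient (Res) and 5 susceptible (Sus) after up to 10 days of defeat, served as reference levels.

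SIRT1 is a deacetylase of histones and transcription factors that uses NAD+ as a cosubstrate, so its activity is tied to the metabolic state of the cell. It is the best studied of the sirtuins, which differ in their place in the cell: SIRT6 and SIRT7 are nuclear, SIRT2 is mainly cytoplasmic, and SIRT3, SIRT4 and SIRT5 are mitochondrial. D1-MSNs release GABA together with dynorphin and substance P and respond to dopamine through adenylyl cyclase.

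Depth was 22174187 to 31785984 counts on genes in Sirt1-KO and 26378222 to 30187149 in D1 Con (exact two-sided permutation test, p = 0.971, n = 4 and 4, where the smallest possible p is 0.0286). In average-linkage clustering of the 17 D1-IP libraries into 2 clusters, Sirt1-KO 1, 3 and 4 fell together with D1 Sus 3, and Sirt1-KO 5 fell with all the other libraries. Sirt1-KO 5 was also the shallowest of the 8 libraries and had the highest share of counts on the ribosomal RNA precursor *Rn45s* (4.30%, against 1.48 to 3.24% in the other 3 Sirt1-KO libraries and 0.438 to 2.72% in D1 Con). Results that rest on this library are given with and without it.

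*Sirt1* itself (chromosome 10, 63319005 to 63381704, minus strand, GRCm38) did not pass the test for a difference in the libraries labelled Sirt1-KO. Its level was 13.1, 16.6, 14.8 and 14.4 CPM in D1 Con 1 to 4 and 15.2, 16.2, 13.2 and 10.2 CPM in Sirt1-KO 1, 3, 4 and 5, so the 2 groups overlapped. D1 Con averaged 14.7 ± 1.48 CPM and Sirt1-KO 13.7 ± 2.64 CPM (SD, n = 4 each), with a log2 fold change of -0.10 ± 0.13 (SE), adjusted p = 0.768 by edgeR (95% interval 0.765 to 1.14 as a fold) and p = 0.629 by the exact two-sided permutation test. The lowest value was in Sirt1-KO 5, and without that library the log2 fold change was 0.01 (adjusted p = 0.97 by edgeR). The counts are summed over the whole gene, so a transcript that has lost one exon is still counted by its other exons. The label of the knockout could therefore not be checked with these values, and "Sirt1-KO" is used here as the libraries' label.

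None of the other sirtuins passed the test either. *Sirt2*, the most abundant of them by CPM, was at 42.7 to 47.7 CPM in D1 Con and 45.5 to 53.6 CPM in Sirt1-KO (log2 fold change of 0.11). The nearest to a difference was *Sirt6*, a chromatin deacetylase, at 5.8, 6.01, 5.49 and 5.44 CPM in D1 Con 1 to 4 and 5.86, 6.02, 6.64 and 7.49 CPM in Sirt1-KO 1, 3, 4 and 5 (log2 fold change of 0.19 ± 0.12 (SE), adjusted p = 0.442 by edgeR; exact p = 0.0571). The mitochondrial members *Sirt3*, *Sirt4* and *Sirt5* had log2 fold changes of -0.10, 0.01 and -0.07, and the nucleolar *Sirt7* -0.07. *Rpl22*, the gene that carries the HA tag, was at 33.8 to 42.3 CPM in D1 Con and 33.9 to 41.9 CPM in Sirt1-KO and gave a log2 fold change of 0.01 (adjusted p = 0.979 by edgeR).

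**Figure D1:**
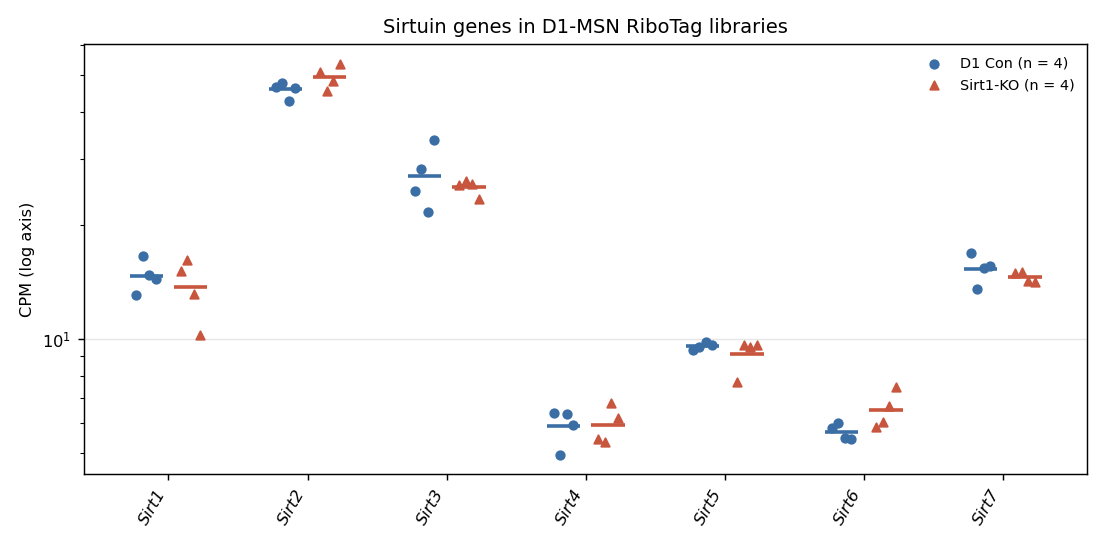
CPM of the 7 sirtuin genes on a log axis, 1 point per library (circles, 4 D1 Con; triangles, 4 Sirt1-KO) with a bar at each group's mean. The groups overlap for *Sirt1*, whose lowest value, 10.2 CPM, is in Sirt1-KO 5.

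Elsewhere in the genome, 102 of 13626 genes tested (0.749%) were called, at a fold over 1.5 and an adjusted p under 0.05 by edgeR's quasi-likelihood test. Of these, 38 (0.279%) were higher and 64 (0.47%) lower in Sirt1-KO. The libraries of the groups did not overlap for 99 of the 102, which were chosen on these same libraries, against 9.55% of all genes tested. The count rests on single libraries. It was 386 (2.8%) without Sirt1-KO 5, of which 230 (1.67%) were higher and 156 (1.13%) lower. It fell to 29 without Sirt1-KO 3, 38 without D1 Con 3, 45 without D1 Con 4, 52 without Sirt1-KO 4 and 63 without Sirt1-KO 1. All 102 genes kept their direction whichever library was left out, and 22 were called every time. Of the 102, 99 were also called without Sirt1-KO 5, and all 102 still had an adjusted p under 0.05 (7.41% of all genes tested). These refits reuse the libraries on which the 102 were chosen, so their counts describe and do not test. Set against the 9 Res and Sus libraries in place of D1 Con, a comparison that uses the Sirt1-KO libraries again, 269 of 13855 genes (1.94%) were called. In 61 of the 102, which were chosen on these same Sirt1-KO libraries, all 4 Sirt1-KO libraries lay outside the range of the 13 other D1-IP libraries, against 2.06% of all genes.

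**Figure D2:**
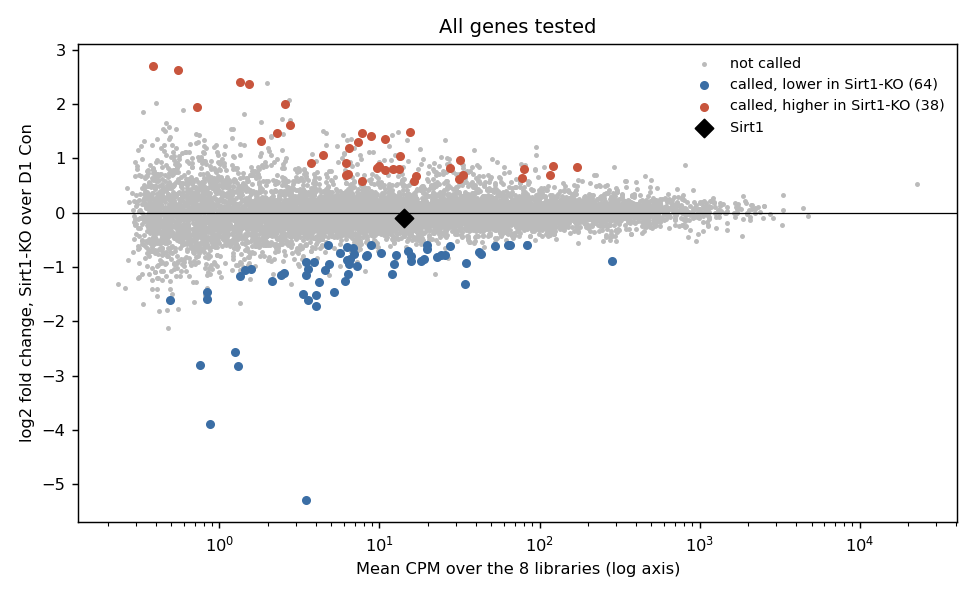
Log2 fold change of Sirt1-KO over D1 Con against the mean CPM over the 8 libraries (log axis), 1 point per gene tested. The 38 genes called higher and 64 called lower are coloured, and *Sirt1* (diamond) lies at -0.10.

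The largest fall was that of *Rec8*, the meiotic subunit of cohesin, a gene on chromosome 14. It was at 8.06, 4.94, 9.46 and 4.57 CPM in D1 Con 1 to 4 and 0.105, 0.129, 0.286 and 0.14 CPM in Sirt1-KO 1, 3, 4 and 5, which is 122 to 293 counts in each D1 Con library and 3 to 9 counts in each Sirt1-KO library. It was 39.2-fold lower in Sirt1-KO (log2 fold change of -5.29 ± 0.37 (SE), adjusted p = 0.000129 by edgeR), and this fall was the most significant change of all genes tested. The 9 Res and Sus libraries had a lowest, median and highest level of 0.925, 7.58 and 9.22 CPM, so no other D1-IP library was as low as those of Sirt1-KO.

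Neuropeptide precursors and peptide receptors were among the genes that fell. These 2 lists were drawn up after the values had been seen, so their counts describe and do not test. Of 26 precursors tested, 3 were called lower and none higher, against 0.47% and 0.279% of all genes tested. Without Sirt1-KO 5, 4 were called lower and 1 higher, against 1.13% and 1.67% of all genes in that fit. *Gal*, the precursor of galanin, was at 1.18, 1.65, 1.84 and 1.91 CPM in D1 Con 1 to 4 and 0.175, 0.129, 0 and 0.14 CPM in Sirt1-KO 1, 3, 4 and 5. *Gal* had a log2 fold change of -3.88 ± 0.47 (SE), adjusted p = 0.0043 by edgeR. The highest Sirt1-KO library held 5 counts and another held 0. The 9 Res and Sus libraries had a lowest, median and highest *Gal* level of 0.179, 2.03 and 5.21 CPM. The lowest of these was just above the highest Sirt1-KO level. *Nts*, the precursor of neurotensin, was at 48.5, 43.9, 53.2 and 48.1 CPM in D1 Con 1 to 4 and 23.9, 19.9, 14.5 and 19.95 CPM in Sirt1-KO 1, 3, 4 and 5 with no overlap, a 2.48-fold fall. *Nts* had a log2 fold change of -1.31 ± 0.12 (SE), adjusted p = 0.002 by edgeR. *Tac2*, which encodes neurokinin B, was at 4.49, 4.21, 6.58 and 4.87 CPM in D1 Con and 2.63, 2.1, 2.51 and 3.63 CPM in Sirt1-KO. *Tac2* had a log2 fold change of -0.91, adjusted p = 0.048 by edgeR. Its levels in the Res and Sus libraries, with a lowest of 2.6 CPM, reached into the Sirt1-KO range. Against those libraries its adjusted p was 0.0748 by edgeR. *Pdyn*, the dynorphin precursor and a D1-MSN marker, fell less, from 561, 451, 455 and 497 CPM to 402, 377, 337 and 402 CPM. Its fall (log2 fold change of -0.37, adjusted p = 0.0448) passed the adjusted p but not the fold limit, and so did that of *Cartpt* (log2 fold change of -0.47, adjusted p = 0.0447). *Npy* went the other way, with 9.01, 11.4, 8.62 and 9.67 CPM in D1 Con and 12.9, 12.5, 14.1 and 13.6 CPM in Sirt1-KO (log2 fold change of 0.46, adjusted p = 0.0491). The median log2 fold change over the 26 precursors was -0.16, against 0.0001 over all genes tested.

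Of 52 peptide and peptide hormone receptors tested, 6 were called lower and none higher, again against 0.47% and 0.279% of all genes. *Oprk1*, the kappa opioid receptor on which dynorphin acts, was at 59.8, 48.4, 55.7 and 52.5 CPM in D1 Con 1 to 4 and 32.98, 31.0, 27.9 and 35.3 CPM in Sirt1-KO 1, 3, 4 and 5. *Oprk1* had a log2 fold change of -0.77 ± 0.09 (SE), adjusted p = 0.00271 by edgeR. *Tacr3*, the neurokinin B receptor, was at 5.3, 4.72, 6.87 and 6.86 CPM in D1 Con and 2.39, 1.59, 2.13 and 3.86 CPM in Sirt1-KO. *Tacr3* had a log2 fold change of -1.28, adjusted p = 0.0291 by edgeR. Both the peptide and the receptor of the neurokinin B pair and of the dynorphin pair were lower in Sirt1-KO, the dynorphin precursor below the fold limit. These pairs were picked after the values were seen. The NPY pair went opposite ways, *Npy* higher (0.46, below the fold limit) and *Npy2r* lower (-0.77). Whether peptides and their receptors changed together was not tested. *Prlr*, the prolactin receptor, was at 3.21, 5.82, 5.62 and 6.86 CPM in D1 Con and 2.07, 1.00, 1.87 and 2.19 CPM in Sirt1-KO. *Prlr* had a log2 fold change of -1.60, adjusted p = 0.0196 by edgeR. *Npy2r*, an NPY receptor, and *Calcr*, the calcitonin receptor, had log2 fold changes of -0.77 and -0.88, and *Brs3*, an orphan receptor related to the bombesin receptors, one of -1.59. *Mme*, which encodes neprilysin, a peptidase that degrades neuropeptides, was at 33, 30.6, 31.0 and 35.6 CPM in D1 Con and 18.8, 18.6, 14.7 and 24.2 CPM in Sirt1-KO. *Mme* had a log2 fold change of -0.78, adjusted p = 0.0159 by edgeR. Without Sirt1-KO 5 the receptors divided otherwise, with 5 called higher and 6 lower, against 1.67% and 1.13% of all genes in that fit.

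**Figure D3:**
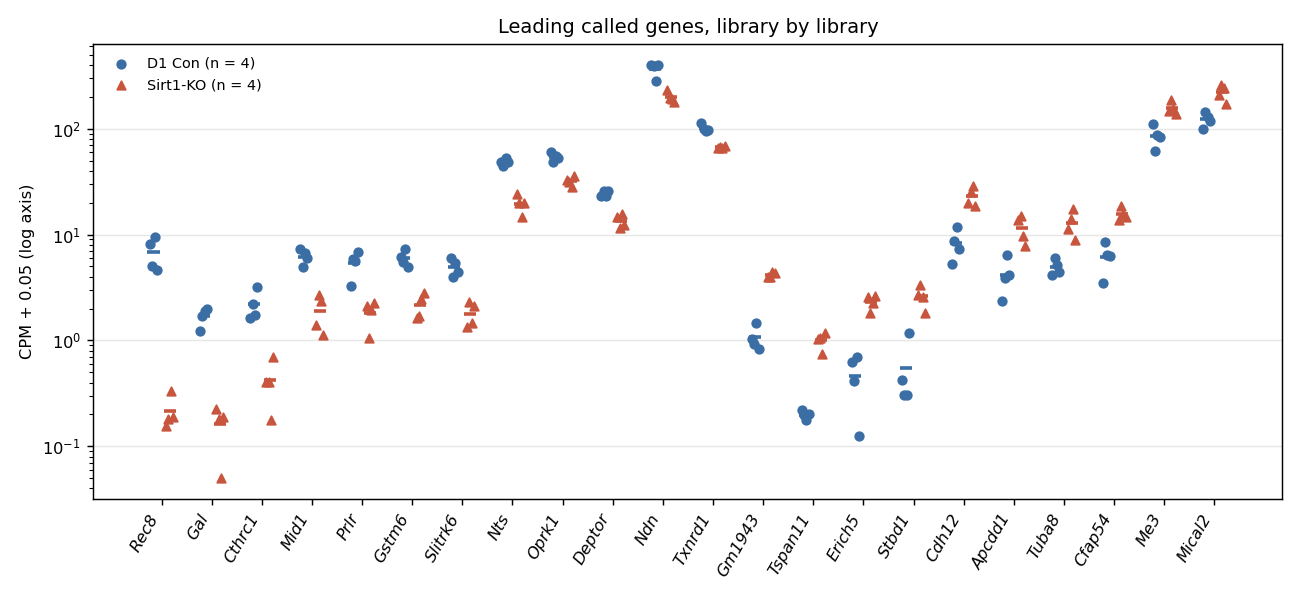
CPM plus 0.05 on a log axis for 22 called genes, 1 point per library (circles, D1 Con; triangles, Sirt1-KO) with a bar at each group's mean. The 12 genes on the left are lower and the 10 on the right higher in Sirt1-KO, with no overlap between the groups in any of them.

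*Txnrd1*, the cytosolic thioredoxin reductase and a selenoprotein, was at 114, 98.6, 95.1 and 96.7 CPM in D1 Con 1 to 4 and 65.4, 66.9, 65.9 and 68.5 CPM in Sirt1-KO 1, 3, 4 and 5, with no overlap between the groups. *Txnrd1* had a log2 fold change of -0.60 ± 0.06 (SE), adjusted p = 0.00222 by edgeR. It was the 1 member called among 27 antioxidant and copper chaperone genes tested, against 0.47% of all genes called lower. The median log2 fold change of that list was -0.04. *Selenom*, another selenoprotein, was at 27.3, 23.9, 24.2 and 22.1 CPM in D1 Con and 12.0, 15.9, 16.8 and 17.1 CPM in Sirt1-KO (log2 fold change of -0.66, adjusted p = 0.0196). Of 22 selenoproteins tested, a list drawn up after the values were seen, these 2 were called lower and none higher, against 0.47% and 0.279% of all genes. *Gstm6*, a glutathione S-transferase, was at 6.14, 5.49, 7.26 and 4.91 CPM in D1 Con and 1.58, 1.65, 2.41 and 2.74 CPM in Sirt1-KO (log2 fold change of -1.52, adjusted p = 0.00781). *Deptor*, an inhibitor of mTOR, was at 23.1, 25.4, 23.1 and 25.6 CPM in D1 Con 1 to 4 and 14.5, 11.4, 15.4 and 12.3 CPM in Sirt1-KO 1, 3, 4 and 5 (log2 fold change of -0.86 ± 0.10 (SE), adjusted p = 0.00386 by edgeR). It was the 1 of 25 genes called in the insulin, AKT and mTOR list (median 0.01), against 0.47% of all genes called lower. *Irs4*, an insulin receptor substrate, was at 3.61, 7.95, 9.1 and 9.82 CPM in D1 Con and 4.28, 2.14, 2.00 and 2.7 CPM in Sirt1-KO (log2 fold change of -1.46, adjusted p = 0.044), where the groups overlapped. *Ddit4l*, a relative of the mTOR inhibitor REDD1, had a log2 fold change of -0.98. In the cAMP and dopamine signalling list, *Pde1c*, a calmodulin-dependent phosphodiesterase, was the 1 of 30 called, against 0.47% of all genes called lower (88.1, 67.9, 70.3 and 78.1 CPM in D1 Con and 45.5, 46.5, 45.0 and 64.6 CPM in Sirt1-KO, log2 fold change of -0.60, adjusted p = 0.0366 by edgeR). Of these 30 genes 27 had a negative log2 fold change (median -0.25), against 49.96% of all genes tested. Without Sirt1-KO 5, 18 of the 30 had an adjusted p under 0.05 and were lower, against 3.66% of all genes, and 1 was higher. Outside the lists, *Adcy7*, an adenylyl cyclase, had a log2 fold change of -1.16, and *P2ry1* and *Nt5e*, a purine receptor and the enzyme that forms adenosine from AMP, -0.72 and -0.59.

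*Ndn*, which encodes the MAGE protein necdin, was the most abundant of the genes described here that fell past the fold limit, at 398, 392, 283 and 402 CPM in D1 Con 1 to 4 and 229.9, 194, 192 and 180.1 CPM in Sirt1-KO 1, 3, 4 and 5. *Ndn* had a log2 fold change of -0.89 ± 0.11 (SE), adjusted p = 0.00522 by edgeR. It is an imprinted gene of the Prader-Willi region. It was the 1 called of 5 genes of that region tested, against 0.47% of all genes called lower, in a list drawn up after the values were seen. *Acp1*, a low molecular weight tyrosine phosphatase, was at 48.4, 44.9, 48.9 and 39.7 CPM in D1 Con 1 to 4 and 21.1, 24.5, 27.9 and 21.5 CPM in Sirt1-KO 1, 3, 4 and 5. *Acp1* had a log2 fold change of -0.93 ± 0.10 (SE), adjusted p = 0.00222 by edgeR. Its gene lies on proximal chromosome 12 with 3 other called genes, the long noncoding *Gm9866* (-0.89), *Cdhr3* (-1.60) and *Adi1*, an enzyme of methionine salvage, which rose (0.96; 17.6, 25.0, 15.6 and 28.2 CPM in D1 Con and 52.7, 39.4, 35.4 and 40.7 CPM in Sirt1-KO). In that interval, chosen after the values were seen, 4 of 29 genes tested were called (13.8%), against 0.749% of all genes. An interval on distal chromosome 6, also chosen by hand, had 81 genes tested, of which 3 were called higher and 2 lower (6.17%). *Rnf169*, a ubiquitin ligase of the DNA damage response, had a log2 fold change of -0.60 (adjusted p = 0.00222 by edgeR). The remaining large falls were those of *Gm15446* (-2.81), *Pgr15l* (-2.80), *Cthrc1*, a secreted protein of collagen matrix (-2.57), *Mid1*, a microtubule-associated ubiquitin ligase (-1.71), and *Slitrk6*, a synaptic adhesion protein (-1.502). Around *Sirt1*, none of 64 genes tested within 5 Mb was called, and none had an adjusted p under 0.05.

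Among the genes that rose, *Mical2*, a monooxygenase that disassembles actin filaments, and *Me3*, the mitochondrial NADP-dependent malic enzyme, were the most abundant. *Mical2* was at 99.7, 145, 129 and 117 CPM in D1 Con 1 to 4 and 209, 257, 243 and 171 CPM in Sirt1-KO 1, 3, 4 and 5. *Mical2* had a log2 fold change of 0.84 ± 0.13 (SE), adjusted p = 0.0139 by edgeR. *Me3* was at 109.8, 61.9, 87.3 and 82.8 CPM in D1 Con and 148, 184, 154 and 137 CPM in Sirt1-KO, with a log2 fold change of 0.87, adjusted p = 0.0187. *Cdh12*, a neuronal cadherin, was at 5.23, 8.64, 11.7 and 7.2 CPM in D1 Con 1 to 4 and 19.6, 25.3, 28.6 and 18.4 CPM in Sirt1-KO 1, 3, 4 and 5. *Cdh12* had a log2 fold change of 1.49 ± 0.21 (SE), adjusted p = 0.00945 by edgeR. *Tuba8*, an alpha-tubulin, was at 4.12, 5.9, 5.07 and 4.35 CPM in D1 Con and 11.3, 13.9, 17.3 and 8.79 CPM in Sirt1-KO. *Tuba8* had a log2 fold change of 1.41, adjusted p = 0.00852 by edgeR. *Apcdd1*, an inhibitor of Wnt signalling, was at 2.29, 3.81, 6.36 and 4.09 CPM in D1 Con and 13.5, 15.1, 9.62 and 7.67 CPM in Sirt1-KO (log2 fold change of 1.47, adjusted p = 0.0291). *Cfap54*, a protein of motile cilia, was at 3.41, 8.46, 6.33 and 6.26 CPM in D1 Con and 13.8, 18.7, 15.7 and 14.5 CPM in Sirt1-KO (log2 fold change of 1.36, adjusted p = 0.0139).

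The largest folds among the risen genes were at low levels. *Gm1943* was at 0.979, 0.879, 1.42 and 0.787 CPM in D1 Con and 3.89, 3.88, 4.38 and 4.32 CPM in Sirt1-KO. *Gm1943* had a log2 fold change of 2.01 ± 0.20 (SE), adjusted p = 0.00222 by edgeR. *Tspan11*, a tetraspanin, was at 0.169, 0.146, 0.129 and 0.15 CPM in D1 Con and 0.982, 1.00, 0.699 and 1.12 CPM in Sirt1-KO. *Erich5* was at 0.574, 0.366, 0.645 and 0.075 CPM in D1 Con and 2.53, 1.75, 2.22 and 2.56 CPM in Sirt1-KO. Their log2 fold changes were 2.63 and 2.40. *Stbd1*, a glycogen-binding protein, was at 0.371, 0.256, 0.258 and 1.12 CPM in D1 Con and 2.63, 3.3, 2.51 and 1.77 CPM in Sirt1-KO. *Stbd1* had a log2 fold change of 2.37, adjusted p = 0.0211 by edgeR. *Arhgap25*, *Xlr3b* and the TGF-beta family ligand *Lefty2* had log2 fold changes of 1.61, 1.47 and 1.95. *Zbtb16*, a transcription factor induced by glucocorticoids, was at 5.94, 8.9, 7.16 and 9.75 CPM in D1 Con and 12.8, 13.2, 15.4 and 13.4 CPM in Sirt1-KO (log2 fold change of 0.79, adjusted p = 0.0257). It was the 1 of 14 glucocorticoid response genes called, against 0.279% of all genes called higher.

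In a cluster of zinc finger genes on distal chromosome 2, 4 genes rose and none fell. The region was chosen after the values were seen, so no test was made of it. All 9 genes tested there had a positive log2 fold change (median 0.82), and 4 were called, all higher, against 0.279% of all genes. Without Sirt1-KO 5, 7 of the 9 were called higher, against 1.67% of all genes. *Gm14305* was at 5.13, 3.88, 4.26 and 3.75 CPM in D1 Con 1 to 4 and 8.25, 8.19, 8.19 and 7.53 CPM in Sirt1-KO 1, 3, 4 and 5. *Gm14305* had a log2 fold change of 0.92 ± 0.12 (SE), adjusted p = 0.00805 by edgeR. *Gm14326* was at 9.14, 6.77, 6.87 and 5.59 CPM in D1 Con and 13.4, 13.9, 12.3 and 11.9 CPM in Sirt1-KO. *Gm14326* had a log2 fold change of 0.86, adjusted p = 0.0159 by edgeR. *Zfp971* and *Zfp970* had log2 fold changes of 0.83 and 0.68, and the smallest of the 9 was that of *Zfp931* (0.13). Parts of the promoters of the 4 called genes are shown, placed around the longest run of bases that all 4 share (54 bases). Each line is 120 bases of the strand of the gene, 5′ to 3′, from the RefSeq promoter table (GRCm38.p6), with the sequence CCAAT in capitals.
Gm14305: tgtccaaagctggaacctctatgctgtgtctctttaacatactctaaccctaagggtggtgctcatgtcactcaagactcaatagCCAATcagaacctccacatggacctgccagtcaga
Zfp970: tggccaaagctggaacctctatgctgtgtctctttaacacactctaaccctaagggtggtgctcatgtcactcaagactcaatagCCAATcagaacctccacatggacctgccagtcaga
Gm14326: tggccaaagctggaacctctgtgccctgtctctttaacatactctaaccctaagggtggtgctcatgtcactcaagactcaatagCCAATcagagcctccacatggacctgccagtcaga
Zfp971: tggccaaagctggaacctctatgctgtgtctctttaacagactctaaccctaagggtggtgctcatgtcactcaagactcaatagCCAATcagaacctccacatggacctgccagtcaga
These windows are chr2:176708164-176708283, chr2:177464588-177464707, chr2:177957349-177957468 and chr2:178023121-178023240, and end 69, 34, 60 and 43 bases before the annotated start, respectively. They are equal in all 4 genes at 114 of 120 bases, a likeness that the placing of the windows favours. Likeness outside the windows was not measured. The letters CCAAT, on either strand, occur in all 22 promoters of these zinc finger genes in the table and in 37.4% of its 32851 promoters of 300 bases. The 22 belong to a single gene family and include genes that were not called. They are therefore not independent occurrences, and the 2 shares describe and do not test. Whether the letters CCAAT bear on the rise was not tested. The windows lie upstream of the transcripts. How alike the transcripts are, and so how well reads are assigned to single members of this gene family, was not tested. Levels in the Res and Sus libraries reached into the Sirt1-KO range: *Gm14305* had a lowest, median and highest level of 4.27, 6.52 and 8.6 CPM there. Against those libraries 1 of the 9 genes was called, beside 1.94% of all genes in either direction.

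**Figure D4:**
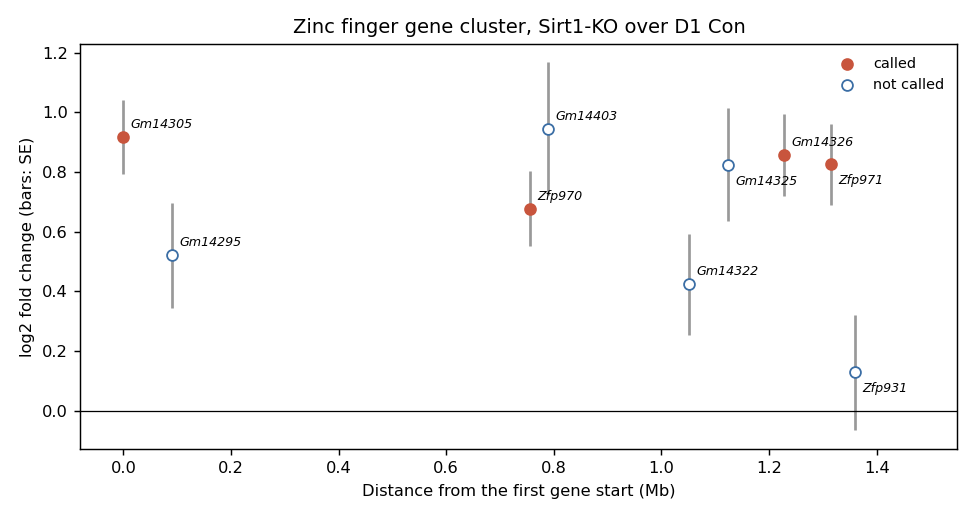
Log2 fold change of Sirt1-KO over D1 Con for the 9 tested zinc finger genes of distal chromosome 2, against the distance of each gene's start from the first (Mb); bars are SE. All 9 points are above 0, and the 4 called genes (filled) lie between 0.68 and 0.92.

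The clustered protocadherins, cell surface proteins of which each neuron uses a few, went both ways. Of 54 tested, *Pcdhga11* (-1.13) and *Pcdhgb6* (-0.80) were called lower and *Pcdhb1* (2.71) higher, against 0.47% and 0.279% of all genes. *Pcdhga11* was at 18.1, 16.3, 14.4 and 16.8 CPM in D1 Con and 8.91, 10.5, 5.65 and 4.56 CPM in Sirt1-KO. *Pcdhb1* was at 0.169, 0.0732, 0.0323 and 0.112 CPM in D1 Con and 0.772, 0.485, 0.349 and 1.07 CPM in Sirt1-KO. *Pcdhga11* and *Pcdhgb6* belong to the gamma cluster, whose members share their last exons, so reads there cannot be given to a single member. This list, too, was drawn up after the values were seen.

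Gene groups tied to known functions of SIRT1 were examined by list, against 0.749% called of all genes tested, a share at which lists of this size hold few or no called genes. None was called of 11 histone deacetylases of the other classes, 28 SIRT1 substrates and regulators, 23 FOXO and p53 target genes, 19 genes of mitochondrial biogenesis and dynamics, 74 nuclear genes of oxidative phosphorylation, 22 clock genes, 22 autophagy genes or 25 genes of cholesterol and fatty acid synthesis, and the medians of these lists ran from -0.07 to 0.07. Without Sirt1-KO 5, 1 member of these lists was called, the mitochondrial carrier gene *Ucp2* (2.46, 5.05, 2.16 and 5.85 CPM in D1 Con and 8.14, 8.7, 10.3 and 5.72 CPM in Sirt1-KO; log2 fold change of 1.23, adjusted p = 0.0242 by edgeR without that library, and 1.10 with it). Of 13 NAD+ metabolism genes none was called, and 7 had a positive and 6 a negative log2 fold change (median 0.15). Their summed level was 591 to 637 CPM in D1 Con and 658 to 668 CPM in Sirt1-KO. Of them *Nnt*, the mitochondrial transhydrogenase that exchanges NADH and NADPH, passed the adjusted p below the fold limit. *Nnt* was at 28.1, 26.5, 28.0 and 27.8 CPM in D1 Con and 37.6, 32.8, 37.0 and 34.8 CPM in Sirt1-KO (log2 fold change of 0.36, adjusted p = 0.0237 by edgeR). Without Sirt1-KO 5, 2 of the 13 had an adjusted p under 0.05, both higher, against 7.41% of all genes in either direction. No member of 77 cytosolic ribosomal protein genes was called, but *Rpl3* (-0.53), *Rps15a* (-0.37), *Rps13* (-0.31) and *Rpl10* (-0.25) had an adjusted p under 0.05 by edgeR, all lower, against 1.66% of all genes tested (0.616% higher, 1.04% lower). Of 21 immediate early genes none was called. The heat shock list of 64 genes held *Hspa2* (0.53) and the interferon list of 18 genes *Stat2* (0.41) at an adjusted p under 0.05 without reaching the fold limit. Without Sirt1-KO 5, 4 heat shock genes were called higher and 1 lower, against 1.67% and 1.13% of all genes. Among synaptic genes the same held for *Gabra2*, a GABA-A receptor subunit (log2 fold change of 0.48, adjusted p = 0.00887), and *Gria4*, an AMPA receptor subunit (log2 fold change of -0.30, adjusted p = 0.0353). *Gabra2* was at 125, 112, 124 and 119 CPM in D1 Con and 149, 165, 175 and 184 CPM in Sirt1-KO. *Gria4* was at 79.2, 88.3, 78.6 and 80.5 CPM in D1 Con and 68.8, 63.5, 64.1 and 69.2 CPM in Sirt1-KO. Of 14 GABA-A receptor genes 8 had a negative log2 fold change (median -0.15), and of 28 glutamate receptor and AMPA auxiliary genes 10 (median 0.11). Without Sirt1-KO 5, 2 GABA-A genes were called lower, *Gabrq* (-1.21, adjusted p = 0.0185 by edgeR) among them, and none higher. Of the glutamate list 2 were then called higher and 2 lower, against 1.67% and 1.13% of all genes. *Stx1a*, a syntaxin of transmitter release, was called higher (log2 fold change of 0.70, adjusted p = 0.0376), although its groups overlapped. *Stx1a* was at 71.5, 106, 89.6 and 86.7 CPM in D1 Con and 140.4, 163, 165 and 104 CPM in Sirt1-KO.

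The markers of D1-MSNs were present in every library, with *Drd1* at 299.9 to 383 CPM in D1 Con and 233 to 313 CPM in Sirt1-KO, and most MSN markers had a negative log2 fold change in Sirt1-KO. All 12 MSN identity genes had a negative log2 fold change (median -0.29), against 49.96% of all genes tested, though none was called and none had an adjusted p under 0.05. Of the 8 D1-MSN markers 7 were negative, and *Isl1* (log2 fold change of -0.41, adjusted p = 0.0376), *Slc35d3* (log2 fold change of -0.39, adjusted p = 0.0448) and *Pdyn* had an adjusted p under 0.05 by edgeR, against 1.04% of all genes, lower. Of the 8 D2-MSN markers 7 were negative as well, with *Drd2* at 84.1 to 118 CPM in D1 Con and 67.0 to 116 CPM in Sirt1-KO. Without Sirt1-KO 5, 8 of the 12 MSN identity genes, 7 of the 8 D1-MSN markers and 4 of the 8 D2-MSN markers had an adjusted p under 0.05, all lower, against 3.66% of all genes tested. These libraries hold precipitated ribosomes of pooled tissue. Fewer cells of a type, less RNA per cell and a difference in what was precipitated cannot be told apart in them.

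Among the markers of other cell types, 1 cholinergic interneuron gene was called. Of 8 cortical excitatory neuron markers 6 had a positive log2 fold change (median 0.81) and none was called, with an overlapping summed level of 1089 to 1798 CPM in D1 Con and 1543 to 2323 CPM in Sirt1-KO. *Slc17a7*, the vesicular glutamate transporter VGLUT1, was at 299.9, 836, 567 and 586 CPM in D1 Con 1 to 4 and 1007, 1226, 1315 and 685 CPM in Sirt1-KO 1, 3, 4 and 5 (log2 fold change of 0.89, adjusted p = 0.112 by edgeR). *Neurod2* was at 18.8, 48.4, 30.8 and 37.0 CPM in D1 Con and 66.2, 68.0, 91.4 and 41.0 CPM in Sirt1-KO. Without Sirt1-KO 5, 4 of the 8 were called higher, against 1.67% of all genes. All 7 cholinergic interneuron markers tested had a negative log2 fold change (median -0.93), with a summed level of 23.1 to 32.0 CPM in D1 Con and 13.8 to 24.1 CPM in Sirt1-KO. Of these *Slc5a7*, the choline transporter, was the 1 called, against 0.47% of all genes, at 2.5, 3.48, 4.13 and 3.75 CPM in D1 Con and 1.12, 1.97, 1.78 and 1.49 CPM in Sirt1-KO (log2 fold change of -1.11, adjusted p = 0.0356). Without Sirt1-KO 5, 5 of the 7 were called lower, against 1.13% of all genes. Of 8 parvalbumin, somatostatin and NPY interneuron markers 5 had a positive and 3 a negative log2 fold change (median 0.34), and none was called. Without Sirt1-KO 5, 1 was called higher and 2 lower, against 1.67% and 1.13% of all genes. With all 8 libraries *Nos1* (log2 fold change of 0.56, adjusted p = 0.0139 by edgeR) and *Npy* passed the adjusted p, both higher, against 0.616% of all genes. *Nos1* was at 44.5, 55.9, 58.2 and 56.5 CPM in D1 Con and 71.0, 82.3, 83.8 and 79.9 CPM in Sirt1-KO. Astrocyte markers had a negative median (-0.41; 7 of 8 negative). Their summed level was higher in every Sirt1-KO library than in D1 Con (326 to 464 CPM in D1 Con and 470.3 to 591 CPM in Sirt1-KO). The most abundant of them, *Slc1a2*, was at 275, 404, 351 and 348 CPM in D1 Con and 527, 480.2, 435 and 424 CPM in Sirt1-KO. *Slc1a2* had a log2 fold change of 0.44, adjusted p = 0.0609 by edgeR. The 8 oligodendrocyte markers were all negative (median -0.37; summed level 497 to 634 CPM in D1 Con and 402 to 558 CPM in Sirt1-KO) and none was called. Microglia markers (summed level 21.8 to 24.9 CPM in D1 Con and 20.9 to 24.6 CPM in Sirt1-KO) and the 7 endothelial and mural markers tested (summed level 10.7 to 14.7 CPM in D1 Con and 12.6 to 16.6 CPM in Sirt1-KO) held no called gene, and none of 5 red blood cell markers passed the filter on low counts. The part of these other cell types in the results above was not tested.

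**Figure D5:**
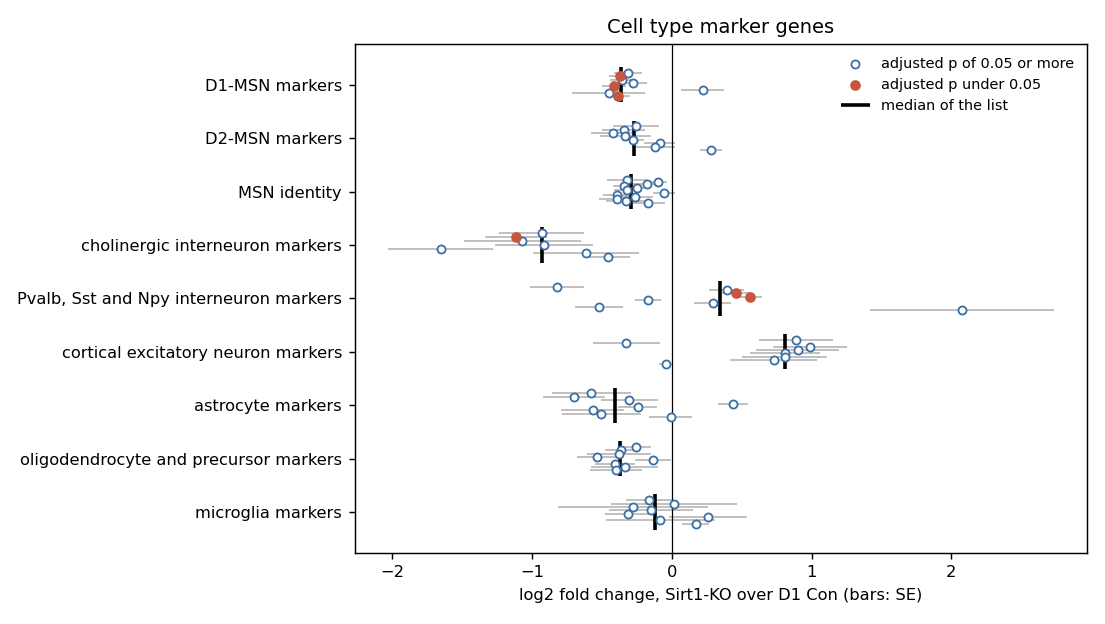
Log2 fold change of Sirt1-KO over D1 Con with SE for the tested members of 9 marker lists, 1 point per gene, with a black bar at each list's median. MSN lists lie mostly left of 0, the cortical excitatory list mostly right (median 0.81) and the cholinergic list left (median -0.93).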

How the data were processed

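RiboTag IP RNA of D1-MSNs was sequenced in 4 Sirt1-KO and 4 D1 Con libraries. Per the labels, the authors built stranded libraries from poly-A RNA; cutadapt, STAR, HTSeq and mm10 stand in the submitters' processing notes. The deposited values are raw counts per gene symbol, without normalization. The table held 24552 genes, with 5 symbols listed 2 times and taken once, and 5 entries that name no gene (18.7 to 23.8% of all entries in these 8 libraries), which were left out. The D1 Con counts were identical in both deposited tables, and 2 columns without a sample description were not used. No pair of replicates differed by as little as sampling noise (chi-square per gene from 6.06 to 54.3). Whether replicates were prepared separately is given only as pools of 2 mice, so p-values measure the spread between these pools.

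Genes were filtered with filterByExpr (minimum count 10, minimum total 15), scaled by TMM and tested with the quasi-likelihood F test of edgeR 4.0.16 (R 4.3.3), with Benjamini-Hochberg adjustment over all 13626 genes. A gene was called at a fold over 1.5 and an adjusted p under 0.05. CPM are TMM-scaled, and SE follows from the F statistic. CPM is not divided by length. Sirtuins were also compared by exact permutation of log2 CPM (prior count 2) over 7 genes. Comparison with the 9 Res and Sus libraries used the same test. The script was tested on simulated counts. Gene positions came from GENCODE vM21 (GRCm38) by symbol and promoter sequences from RefSeq.

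The comparison, gene lists and rules were chosen with earlier results of these data known. The lists of peptide precursors, peptide receptors, protocadherins, selenoproteins and Prader-Willi genes, and the chromosome 2, 6 and 12 intervals, were chosen after all gene values were seen. Named genes were the sirtuins, *Rpl22*, the 10 largest changes per direction among called genes that do not overlap and reach 1 CPM, the 5 smallest p per direction, and the called or leading members of each list; *Mme*, *Irs4*, *Ddit4l*, *Adcy7*, *P2ry1*, *Nt5e*, *Adi1*, *Cdhr3*, *Me3*, *Stx1a*, *Drd1*, *Drd2*, *Tac1*, *Lhx8*, *Zfp931*, *Rn45s* and list members beyond the rule's limit were added after their values were seen. The mitochondrially encoded list had no matching symbol. Alternatives were RLE and upper-quartile factors, other filters, DESeq2 1.42.0, limma-voom (limma 3.58.1), glmTreat, other reference libraries, the replicate number as a block, and each library left out. Figures used matplotlib 3.10.9.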

Additional observations from a re-analysis of the deposited data

Results flagged for a closer look

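In 8 of 186 groups of 4 libraries examined, 1 library stood apart from the other 3, with a gap over Dixon's 95% critical share of the group's range. Chance alone marks about 1 group in 20. The libraries were Sirt1-KO 1 for *Sirt5* (lowest, 7.72 CPM), D1 Con 1 for *Tac1* (highest, 384.8 CPM) and for *Nos1* (lowest, 44.5 CPM), D1 Con 3 for *Ndn* (lowest, 283.3 CPM) and for *Lhx8* (lowest, 3.61 CPM), D1 Con 4 for *Stbd1* (highest, 1.12 CPM), and Sirt1-KO 5 for *Gm14305* (lowest, 7.53 CPM) and for *Pde1c* (highest, 64.6 CPM).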

How the results depend on the processing

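The 102 calls (38 higher, 64 lower) became 170 (77 higher) with no filter on low counts, 223 (107 higher, 116 lower) with DESeq2, 172 (85 higher) with all 17 D1-IP libraries in the model, and 269 (95 higher, 174 lower) against D1 Res and D1 Sus. Without a limit on the fold, 226 genes (84 higher, 142 lower) had an adjusted p under 0.05 and 2352 (1247 higher, 1105 lower) an unadjusted p under 0.05. With glmTreat, which tests against a fold of 1.5, 5 remained (2 higher, *Gm1943* and *Tspan11*; 3 lower, *Rec8*, *Gal* and *Nts*). Leaving out 1 library gave 29 to 386 calls (8 to 230 higher, 21 to 156 lower), with the lowest count without Sirt1-KO 3 and the highest without Sirt1-KO 5. Leaving out D1 Con 1 and Sirt1-KO 5 together, an alternative added after the data were seen, gave 337 (182 higher, 155 lower). The cause of these shifts was not tested. RLE and upper-quartile factors, a mean of at least 50 counts and limma-voom moved the count by less than 1.5 times.

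The replicate numbers did not pair the libraries: deviations of same-numbered libraries from their group means correlated at -0.01, 0.07 and 0.08. With the replicate number as a block, the 6 libraries numbered 1, 3 and 4 gave 603 calls (412 higher, 191 lower), and the same 6 libraries without the block, added after the data were seen, gave 485 (314 higher, 171 lower). Numbers 2 and 5 have no partner and were left out of both.

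*Sirt1* turned positive in the block fit (0.0696) and in its 6 libraries without the block (0.0717), with leave-one-out values from -0.188 to 0.0116, positive without Sirt1-KO 5; no adjusted p was under 0.05. *Sirt3* turned positive against D1 Res and D1 Sus (0.0677) and ran from -0.191 to 0.0238 leaving out 1 library, and *Sirt7* turned positive against D1 Res and D1 Sus (0.103). *Sirt4* turned negative with upper-quartile factors (-0.00702), against D1 Res and D1 Sus (-0.0145), in the block fit (-0.0994) and in its 6 libraries without the block (-0.0924), and ran from -0.0676 to 0.0565 leaving out 1 library. *Rpl22* turned negative with upper-quartile factors (-0.00705) and ran from -0.0459 to 0.0622, and *Zfp931* turned negative against D1 Res and D1 Sus (-0.0178) and ran from -0.00275 to 0.271. The refits gave 1034 values for the 55 called genes named, 1 per gene and setting. None of these values changed direction, and 177 of them lost the adjusted p. The genes were chosen on the same Sirt1-KO libraries that the refits use, so these counts describe and do not test.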
